A study of Homo sapiens with 16 samples.

Results

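The intestinal and endoderm lineage transcription factors described here are 8 genes, HNF4A, HNF4G, CDX1, CDX2, GATA6, FOXA1, FOXA2 and FOXA3, taken by symbol out of the 60668 genes of the raw count table. Of these 8 genes, 7 were in the authors' table of scaled values, which holds 22916 genes, and the same 7 were among the 17104 genes tested. CDX1 was the gene left out of both. The RNA came from HCT116, a long-established line of human colorectal cancer cells, in 4 groups of 4 libraries. WT cells carry the unedited Rpn10 gene, and truncation cells were gene-edited so that Rpn10, a ubiquitin receptor of the proteasome, lacks its ubiquitin interacting motif. For 48 hours before extraction, each genotype was transfected at 50 nM either with a scrambled siRNA or with 4 pooled siRNAs that target OTUD5, a deubiquitinase. The groups are called WT scramble, WT knockdown, truncation scramble and truncation knockdown. How many edited clones were used is not given in the sources used here, so an effect of the edit and a trait of the edited line cannot be told apart. The same holds for OTUD5 loss and other effects of the siRNA mix.

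These factors set and maintain the identity of gut epithelium. HNF4A and HNF4G are nuclear receptors that keep enterocyte genes active, CDX1 and CDX2 are homeobox factors that specify the hindgut, GATA6 is a zinc finger factor of endoderm and of proliferating crypt cells, and FOXA1, FOXA2 and FOXA3 are forkhead factors that open chromatin at endoderm genes. Several of them serve as lineage markers of gut epithelium, and HNF4A is transcribed from 2 promoters, called P2 and P1, that give proteins with different first exons.

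All libraries held between 28777244 and 29645663 counts. Scaled values are CPM, read counts relative to library size after scaling by the trimmed mean of M values (TMM). OTUD5 was at 88.5 ± 3.18 CPM (SD, n = 4) in WT scramble and 20.0 ± 2.05 in WT knockdown, and at 94.9 ± 2.27 and 20.7 ± 1.49 in the 2 truncation groups. PSMD4, the gene of Rpn10, was at 236.5 ± 13.2 and 262.7 ± 26.7 CPM in WT scramble and knockdown and at 202.4 ± 5.37 and 321.3 ± 16.8 in the truncation groups, and its gene-level count does not show the edit. WT knockdown replicates 2 and 3 stood apart from their group. In replicate 3, 32264 genes were detected, where the remaining 15 libraries detected 25626 to 27765, and replicate 2 took part in the least similar replicate pair, with a chi-square per degree of freedom of 22.7. The intestinal genes VIL1, CDH17 and LGALS4 held 33, 121 and 31 counts over all 16 libraries, while EPCAM, KRT8, KRT18, KRT19 and CDH1 were well above these. Of the 6 tested genes of this marker list none rose and 3 fell with the truncation in scramble cells, and 2 rose and 3 fell in knockdown cells. Over all tested genes 44.0% and 45.5% changed by the same test. The changes of the list were as follows. CDH1, which encodes E-cadherin, fell by 0.88 and 1.06 on the log2 scale (adjusted p 2.98e-09 and 8.49e-11) and EPCAM by 0.32 and 0.63. The third gene to fall, KRT19, changed by -0.18 and -0.44. It lost its call in scramble cells when replicate 1 or 4 of WT scramble, or replicate 1, 2 or 3 of truncation scramble, was omitted. The 2 genes that rose in knockdown cells were KRT18, by 0.53 (adjusted p 2.89e-05), and KRT8, by 0.24. KRT8 lost its rise without WT knockdown replicate 1 or 3 or truncation knockdown replicate 2. The list summed to 3910 to 4520 CPM in WT scramble and 3990 to 4310 in truncation scramble, and its part in the changes below was not tested. In bulk RNA, fewer cells expressing a gene and less RNA per cell cannot be told apart.

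The stretches before the start sites of HNF4A, GATA6 and FOXA1 are shown because these 3 genes were the ones that rose with the truncation. RefSeq's promoter table (build GRCh38.p14) had windows for 5 of the 8 genes, and each window runs from 250 bases before to 50 after a start site. Printed are only bases before the start site and outside untranslated regions annotated for the same gene, 5′ to 3′ on the strand of the gene. Capitals mark GATAA, a core recognised by GATA factors, and GTTAAT, a half-site of HNF1 factors, on either strand.
HNF4A P2, chr20:44355449-44355698, plus strand: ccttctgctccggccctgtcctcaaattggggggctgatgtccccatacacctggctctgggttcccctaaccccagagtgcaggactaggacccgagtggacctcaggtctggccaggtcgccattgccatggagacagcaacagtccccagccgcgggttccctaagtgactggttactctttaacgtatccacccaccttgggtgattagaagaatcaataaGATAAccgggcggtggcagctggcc
HNF4A P1, chr20:44400989-44401238, plus strand: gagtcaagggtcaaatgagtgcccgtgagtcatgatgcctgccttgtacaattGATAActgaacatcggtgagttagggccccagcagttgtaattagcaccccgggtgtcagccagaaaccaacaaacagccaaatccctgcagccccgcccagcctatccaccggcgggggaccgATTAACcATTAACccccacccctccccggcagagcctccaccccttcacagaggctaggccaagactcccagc
GATA6, chr18:22169339-22169442, plus strand: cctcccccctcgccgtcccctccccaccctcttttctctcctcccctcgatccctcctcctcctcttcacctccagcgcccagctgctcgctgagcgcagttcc
FOXA1, chr14:37595250-37595499, minus strand: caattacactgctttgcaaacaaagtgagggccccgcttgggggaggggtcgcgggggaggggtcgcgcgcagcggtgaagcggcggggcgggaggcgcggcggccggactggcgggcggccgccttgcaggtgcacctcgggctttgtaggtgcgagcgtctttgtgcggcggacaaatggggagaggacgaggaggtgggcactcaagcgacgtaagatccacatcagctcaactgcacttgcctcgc
Both HNF4A windows held GATAA once, at base -25 from the P2 start and at base -197 from the P1 start, and 22.7% of the 35116 promoter windows hold it. GTTAAT, which was added after the sequences had been read, occurred in the P1 window at bases -73 and -66, both on the minus strand, and is in 6.88% of all windows. The forkhead core TGTTTAC (3.42% of windows), the HNF4 motif CAAAGTCC (1.2%) and the CDX motif TTTATNG (9.73%) were also searched on both strands, and none of the 3 was found in these 4 windows. Motifs also lay in windows of members without a called change. The CDX2 window held GATAA (base -119), TGTTTAC (-13), TTTATNG (-181) and GTTAAT (-3), and the FOXA3 window held TTTATNG (-31). A link between motifs and changes was not tested. The 5 motifs were searched one by one, and their matches do not overlap here. A match is a string of letters and not a measured binding site. The counts are per gene and do not separate P1 from P2 transcripts.

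**Figure D1:**
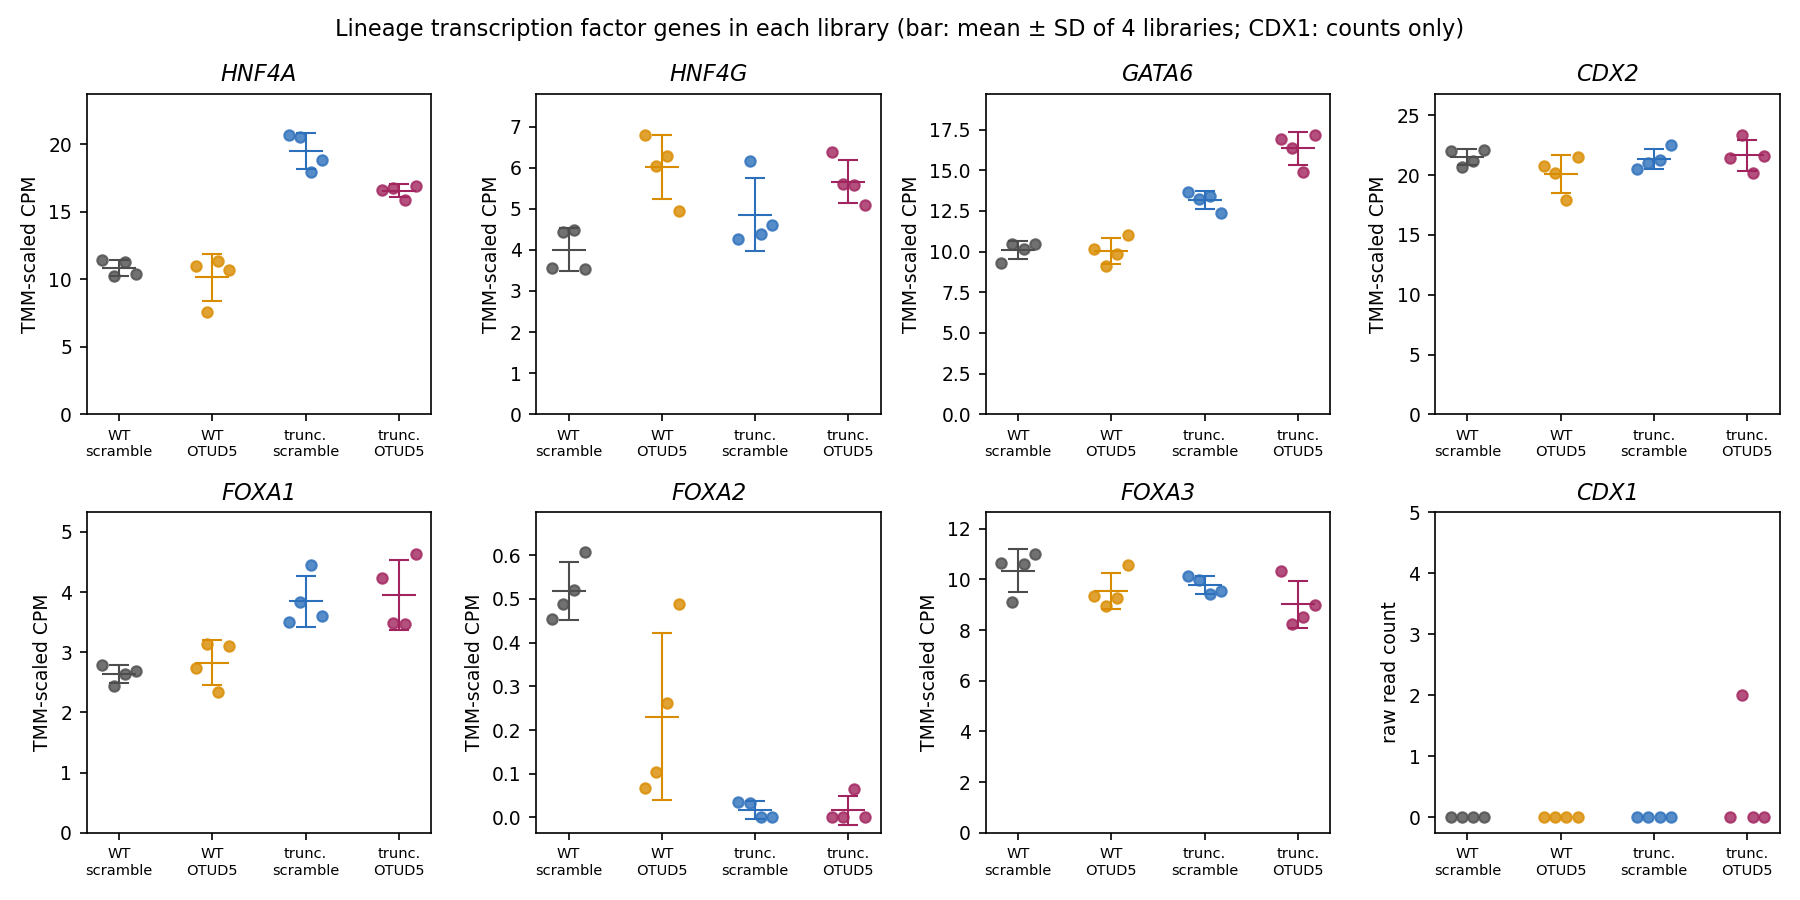
TMM-scaled CPM (y axis) of each gene in the 16 libraries by group (x axis), with points for libraries and bars for the mean ± SD of 4 libraries; CDX1, which has no scaled value, is shown as raw counts. HNF4A and GATA6 stand higher in all 8 truncation libraries than in all 8 WT libraries, CDX2 and FOXA3 overlap across the groups, and FOXA2 is near 0 in truncation libraries.

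HNF4A (ENSG00000101076, GRCh38 chromosome 20, 44355700 to 44434596) was higher in truncation cells. It measured 11.4, 10.2, 11.3 and 10.4 CPM in WT scramble replicates 1 to 4 and 20.7, 20.5, 18.0 and 18.9 CPM in truncation scramble. WT knockdown gave 11.0, 7.58, 11.4 and 10.7 CPM, and truncation knockdown 16.6, 16.8, 15.9 and 16.9 CPM. The lowest truncation library, at 15.9 CPM, lay above the highest WT library, and the low WT knockdown value was that of replicate 2. With the truncation HNF4A rose by a log2 fold change of 0.84 ± 0.09 (standard error, n = 4 against 4) in scramble cells, a 1.785-fold rise, and by 0.71 ± 0.10 in knockdown cells. The adjusted p was 1.04e-07 and 1.25e-06 by edgeR's quasi-likelihood test with Benjamini-Hochberg adjustment over all 17104 genes, the test used throughout, with a gene called at an adjusted p under 0.05.

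Knockdown changes of HNF4A were small and missed the threshold in both genotypes with all libraries included. Its log2 fold change was -0.08 (95% interval -0.28 to 0.13) in WT cells, with replicate 2 included, and 0.04 without it. In truncation cells it was -0.20 (-0.39 to -0.01), where the libraries of the 2 groups did not overlap but the adjusted p was 0.0617. With a single library omitted, that value passed the threshold in 6 of 16 fits, those without WT knockdown replicate 1, 2 or 3, truncation scramble replicate 3 or 4, or truncation knockdown replicate 4, with adjusted p between 0.0102 and 0.0997 over all 16. It was also called with DESeq2 (0.0469), with no filter on low counts (0.036) and without WT knockdown replicates 2 and 3 together (0.00398), so the call in truncation cells depends on the setting. The antisense gene HNF4A-AS1 lies inside HNF4A on the other strand without sharing exon sequence, and had 9 counts over all libraries.

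HNF4G (ENSG00000164749, chromosome 8, 75407914 to 75566843), the paralog of HNF4A, followed another course. It stood at 3.55, 4.43, 4.47 and 3.54 CPM in WT scramble and at 6.79, 6.05, 6.27 and 4.95 CPM in WT knockdown, so that the lowest knockdown library exceeded the highest scramble library. The knockdown effect in WT cells was 0.60 ± 0.13 on the log2 scale, with an adjusted p of 4.69e-04. Truncation scramble libraries gave 4.27, 6.17, 4.38 and 4.60 CPM and truncation knockdown libraries 6.38, 5.60, 5.57 and 5.09 CPM, and these overlap through replicate 2 of the former. In truncation cells the knockdown effect was 0.25 ± 0.13 with an adjusted p of 0.0934, and 0.37 with an adjusted p of 0.0189 without truncation scramble replicate 2. The difference of the knockdown effects between genotypes (truncation minus WT), tested as an interaction, was -0.34 (-0.72 to 0.03) with an adjusted p of 0.302. The truncation effect itself was 0.27 (-0.01 to 0.54) in scramble cells and -0.08 (-0.34 to 0.18) in knockdown cells, neither called.

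The balance of the 2 HNF4 genes within a library does not depend on scaling. HNF4A counts divided by HNF4G counts were 4.09 ± 0.616 (SD, n = 4) in truncation scramble and 2.94 ± 0.299 after knockdown in the same genotype. In WT cells the ratios were 2.74 ± 0.404 with scramble and 1.71 ± 0.379 with knockdown. Libraries of truncation scramble, at 3.33 to 4.84, lay above those of every other group, and libraries of WT knockdown, at 1.25 to 2.16, lay below. WT scramble (2.31 to 3.21) and truncation knockdown (2.61 to 3.32) overlapped.

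**Figure D2:**
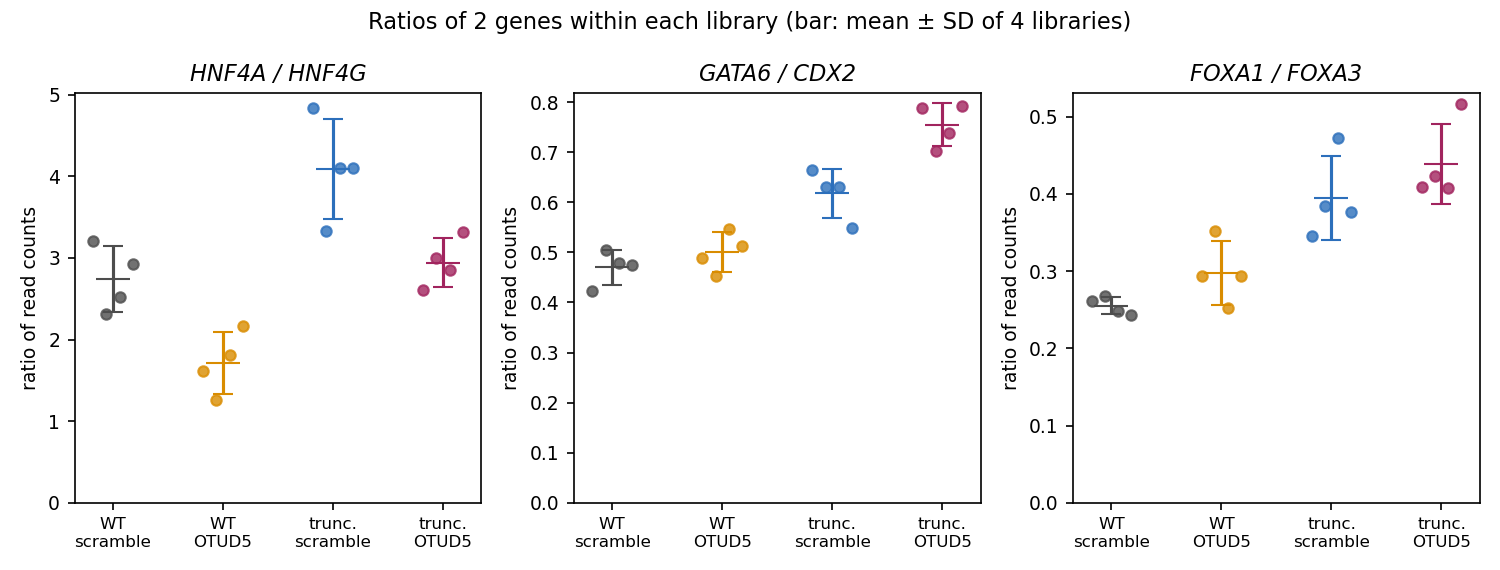
Ratio of raw read counts of 2 genes in the same library (y axis) by group (x axis), with points for libraries and bars for the mean ± SD of 4 libraries. The HNF4A to HNF4G ratio is highest in truncation scramble and lowest in WT knockdown, and the GATA6 to CDX2 ratio is highest in truncation knockdown.

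GATA6 (ENSG00000141448, chromosome 18, 22169443 to 22202528) rose with the truncation, and rose further with knockdown in truncation cells. WT scramble libraries stood at 9.30, 10.5, 10.2 and 10.5 CPM and WT knockdown libraries at 10.1, 9.12, 9.82 and 11.0 CPM, 2 sets that overlap. Truncation scramble libraries stood at 13.7, 13.2, 13.4 and 12.4 CPM, and truncation knockdown libraries at 16.9, 16.4, 14.9 and 17.1 CPM. Neither truncation group overlapped with the other or with a WT group. The truncation effect was 0.37 ± 0.08 in scramble cells (adjusted p 4.36e-04) and 0.71 ± 0.08 in knockdown cells (adjusted p 3.86e-08). The knockdown effect was 0.35 ± 0.08 in truncation cells (adjusted p 3.52e-04) and 0.00 (-0.16 to 0.16) in WT cells.

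The difference between these 2 knockdown effects on GATA6 was 0.34 ± 0.11 on the log2 scale (0.12 to 0.57), with an unadjusted p of 0.00426 and an adjusted p of 0.0621, and so was not called. It was called under upper-quartile scaling (adjusted p 0.0330) and without WT knockdown replicate 4 (0.0434) or truncation knockdown replicate 3 (0.0456), and ranged up to 0.229 over all alternatives. GATA6 counts divided by CDX2 counts were 0.470 ± 0.0345 (SD, n = 4) in WT scramble and 0.50 ± 0.0401 in WT knockdown. The same ratio was 0.618 ± 0.0489 for the truncation with scramble and 0.755 ± 0.0434 with knockdown. Exons of GATA6 share 240 bases with GATA6-AS1 and 321 with AC091588.3 on the other strand. These held 127 and 43 counts over all libraries, against 1153 to 1972 per group for GATA6, and the strand setting of the counting is not given in the sources used here.

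CDX2 (ENSG00000165556, chromosome 13, 27962137 to 27971139) was the highest per exon length, in each group, of the 7 genes with scaled values and had no called change in any comparison. Its means were 21.5 ± 0.656, 20.1 ± 1.56, 21.4 ± 0.866 and 21.7 ± 1.28 CPM (SD, n = 4) for WT with scramble and with knockdown and for the truncation with scramble and with knockdown, in that order, and all 16 libraries lay between 17.9 and 23.3 CPM. The log2 truncation effect was -0.03 (-0.16 to 0.11) in scramble cells and 0.12 (-0.02 to 0.25) in knockdown cells. The knockdown effect was -0.09 (-0.22 to 0.05) in WT cells and 0.05 (-0.08 to 0.19) in truncation cells. These intervals leave room for changes of CDX2 of up to 0.25 on the log2 scale.

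CDX1 (ENSG00000113722, chromosome 5, 150166795 to 150184558), its paralog, had 2 counts in 1 truncation knockdown library and 0 in the other 15. A count of 0 allows up to 3 counts, or 0.101 to 0.104 CPM at these depths, by counting error only. No fold change was computed for it.

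FOXA1 (ENSG00000129514, chromosome 14, 37589984 to 37596059) rose with the truncation at a low level. It measured 2.79, 2.44, 2.64 and 2.68 CPM in WT scramble and 2.74, 3.15, 2.33 and 3.10 CPM in WT knockdown. Truncation scramble gave 3.50, 3.84, 4.45 and 3.60 CPM and truncation knockdown 4.23, 3.48, 3.47 and 4.64 CPM, so each truncation library exceeded each WT library. The truncation effect was 0.53 ± 0.14 in scramble cells (adjusted p 0.00255) and 0.50 ± 0.13 in knockdown cells (adjusted p 0.00353). The knockdown effect was 0.11 (-0.18 to 0.40) in WT cells and 0.07 (-0.19 to 0.34) in truncation cells.

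FOXA2 (ENSG00000125798, chromosome 20, 22581005 to 22585455) was the one member that fell with the truncation, from a level near the detection limit. Its counts were 13, 14, 15 and 17 in WT scramble, 1, 1, 0 and 0 in truncation scramble and 0, 0, 2 and 0 in truncation knockdown. It passed the filter on low counts only through WT scramble, where it was highest, so a difference involving that group was built into its being tested. WT scramble held 59 counts against 2 in truncation scramble, so that the ratio at equal scaled depth was 30.3 (8.02 to 256, exact 95% interval for counting error). The fitted truncation effect was -4.61 ± 0.72 in scramble cells (adjusted p 1.15e-05) and -3.49 ± 0.83 in knockdown cells (adjusted p 0.00121), values that depend on how so few counts are modelled. FOXA2 shares 70 exonic bases with a gene model on the same strand, AL121722.1.

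Knockdown in WT cells left FOXA2 at 2, 3, 8 and 14 counts in replicates 1 to 4, a wide spread within 1 group. The scramble to knockdown ratio was 2.22 (95% exact counting interval 1.39 to 3.65), and replicate 4 reached the scramble libraries. The fitted effect was -1.14 ± 0.45 with an adjusted p of 0.0377. Its reference is WT scramble, the group through which FOXA2 passed the filter, so a fall from it was favoured in advance. The call was lost without any one of WT scramble replicates 1, 2, 3 and 4 or WT knockdown replicates 1, 2 and 3, with adjusted p from 0.0515 to 0.136, and with DESeq2 (0.0869). The fitted effect ranged from -0.84 without WT knockdown replicate 1 to -1.77 without replicate 4, the latter with an adjusted p of 0.00483.

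FOXA3 (ENSG00000170608, chromosome 19, 45863989 to 45873797) had no called change. Its group means were 10.3 ± 0.846, 9.53 ± 0.705, 9.77 ± 0.349 and 9.01 ± 0.936 CPM (SD, n = 4) in the group order used for CDX2, and every pair of groups overlapped. Its 2 truncation effects were -0.10 (-0.28 to 0.08) in scramble cells and -0.07 (-0.25 to 0.11) in knockdown cells, and its knockdown effects were -0.11 (-0.29 to 0.07) and -0.08 (-0.26 to 0.10). With both changes against WT scramble it was -0.18 (-0.36 to 0.0038), with an adjusted p of 0.0783. That change was called in 3 of 21 alternatives, with adjusted p from 0.0143 to 0.189 over all of them. Counts of FOXA1 divided by those of FOXA3 were 0.255 ± 0.0114 in WT scramble and 0.298 ± 0.041 in WT knockdown, against 0.395 ± 0.0548 in truncation scramble and 0.439 ± 0.052 in truncation knockdown. Neither the 2 scramble groups nor the 2 knockdown groups overlapped in this ratio.

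**Figure D3:**
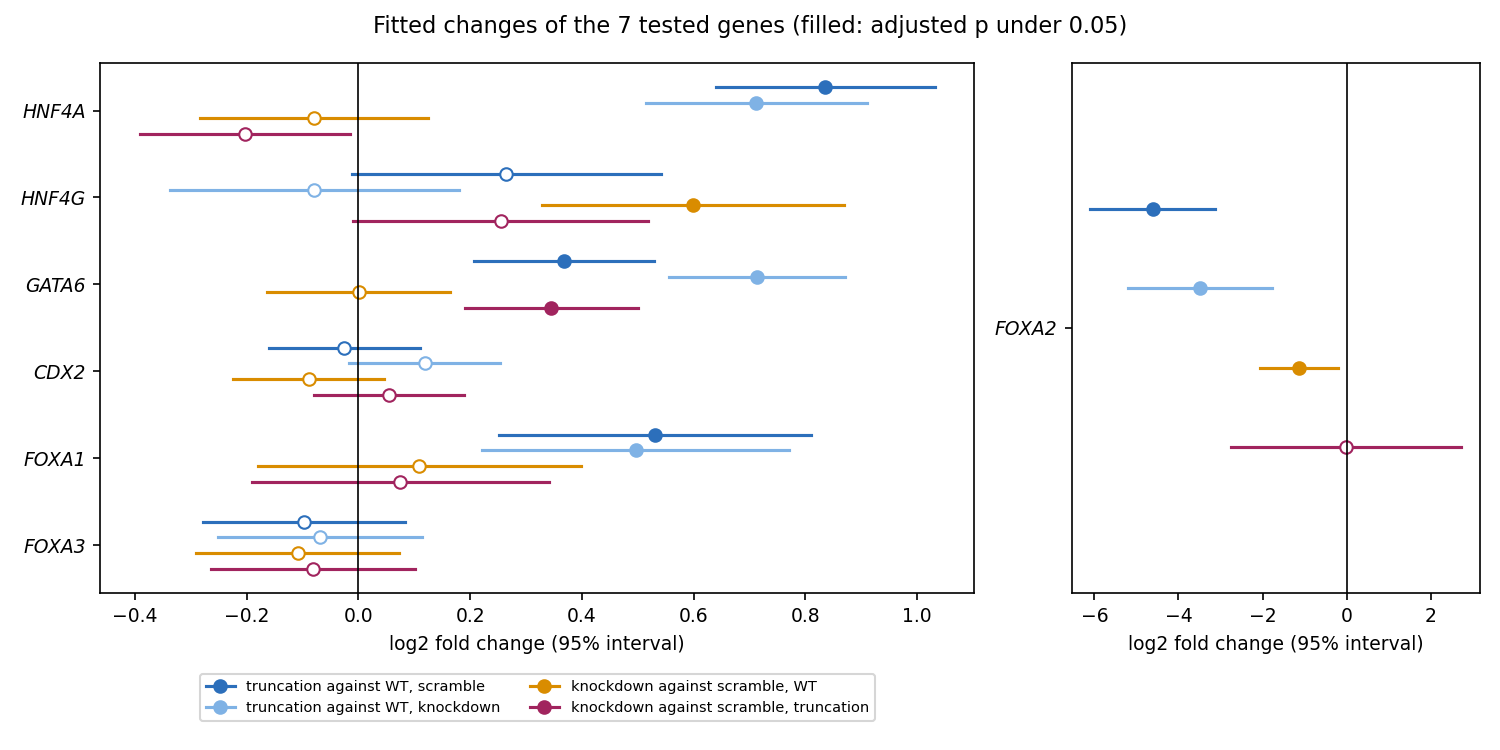
Fitted log2 fold changes (x axis) of the 7 tested genes (y axis) in 4 comparisons, with 95% intervals and filled points where the adjusted p was under 0.05; FOXA2 has its own axis. HNF4A, GATA6 and FOXA1 lie above 0 in both truncation comparisons, while the intervals of CDX2 and FOXA3 include 0 in all 4.

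For the truncation in scramble cells, 3 of the 7 tested members were called higher and 1 lower, where over all tested genes 44.0% were called, 21.6% higher and 22.4% lower. The groups of 3 higher members and 1 lower member did not overlap, as for 42.8% of all genes (21.0% higher and 21.8% lower). In knockdown cells the truncation called 3 members higher and 1 lower against a background of 45.5% (21.9% and 23.6%), and the groups of the same 4 genes did not overlap, as for 36.6% of all genes (18.1% and 18.5%). The 1 lower member of both comparisons is FOXA2, which passed the filter only through WT scramble, so that its call counts for nothing here. These shares are read as context, and nothing is set apart about the members from counts over 7 genes.

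Knockdown in WT cells called 1 member higher and 1 lower, where 50.3% of all genes were called (25.2% and 25.1%). The lower member was FOXA2, whose calls here and with both changes carry the same filter limit. The groups of 1 member, HNF4G, did not overlap, as for 41.4% of all genes (20.3% higher and 21.1% lower). In truncation cells 1 member was called higher and none lower, against 56.7% of all genes (28.7% and 28.1%), and the groups of GATA6 and HNF4A did not overlap, as for 53.9% of all genes (26.5% and 27.4%). With both changes against WT scramble, 66.7% of genes were called (33.2% and 33.5%) and 59.9% did not overlap (29.5% and 30.3%). Among members HNF4A (0.63 ± 0.10), HNF4G (0.52 ± 0.13), GATA6 (0.71 ± 0.08) and FOXA1 (0.61 ± 0.13) rose, FOXA2 fell (59 against 2 counts), and none of these 5 overlapped. The 3 comparisons with WT scramble share those 4 libraries.

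No member was called in the interaction by edgeR's quasi-likelihood test or by DESeq2, and 1, GATA6, had an unadjusted p under 0.05. Of all tested genes 5.69% passed (2.05% and 3.65%), which is 350 with a positive and 624 with a negative difference. Under upper-quartile scaling these numbers were 502 and 397. The total was 974, and without WT knockdown replicate 2 it was 1661.

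Levels were compared between genes per kilobase of exon in GENCODE release 29, which may not be the annotation used for counting. In WT scramble the order was CDX2 at 5.22 ± 0.159 CPM per kilobase (SD, n = 4), FOXA3 at 4.72 ± 0.386, GATA6 at 2.56 ± 0.14, HNF4A at 1.48 ± 0.0828, HNF4G at 0.832 ± 0.109, FOXA1 at 0.662 ± 0.0362 and FOXA2 at 0.199 ± 0.0254. Of neighbours in this order, CDX2 and FOXA3 alone had overlapping ranges of mean ± SD. In truncation knockdown GATA6, at 4.14 ± 0.255 CPM per kilobase, stood level with FOXA3 at 4.11 ± 0.427. There HNF4A was at 2.26 ± 0.0647, and HNF4G at 1.18 ± 0.11 and FOXA1 at 0.993 ± 0.145 had overlapping ranges of mean ± SD.

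Among members, FOXA2 alone had group means of log2 CPM that differed by 1 or more, and the genes with the most similar profile over the 4 groups were sought for it among genes of at least 1 log2 CPM. These were CYTH4, NT5E and VGF, at root-mean-square distances of 0.25, 0.36 and 0.37 log2 units. A prior count of 2 was added before taking logs, which flattens a gene with as few counts as FOXA2. Its group means differed by 2.84, while its fitted truncation effect in scramble cells was -4.61. FOXA2 also passed the filter only through WT scramble, so these distances show no likeness of regulation. CYTH4 moved by -2.10 in truncation scramble, -0.80 in WT knockdown and -2.55 in truncation knockdown, each relative to WT scramble. NT5E is the ecto-nucleotidase CD73, and VGF is a secreted neuropeptide precursor.

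A list of 42 other gut and endoderm transcription factors gives the setting. Of these, 26 were tested, and the other 16 held 0 to 71 counts each over all libraries. The truncation in scramble cells raised 6 and lowered 11, with a median log2 fold change of -0.23 against -0.02 over all tested genes. Over all tested genes 21.6% were called higher and 22.4% lower. KLF4, a factor of intestinal differentiation, fell by 1.68 on the log2 scale and MYB, a factor of crypt progenitors, fell by 1.38, while PRDM1, a repressor active in fetal gut, rose by 1.36 and SP5, a Wnt target, by 0.94. In knockdown cells the truncation raised 6 and lowered 4, with KLF4 at -1.21, MYB at -1.14, the epithelial ETS factor EHF at -0.998 and PRDM1 at 0.86. The median there was -0.02, against 0.00 over all genes, of which 21.9% were called higher and 23.6% lower.

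Knockdown in WT cells raised 9 of the 26 factors and lowered 9, where 25.2% of all genes were called higher and 25.1% lower. The largest changes were SP5 at -1.19, PRDM1 at 1.12, MYB at -0.94 and the ETS factor ELF3 at 0.61. In truncation cells knockdown raised 14 and lowered 6, where 28.7% of all genes were called higher and 28.1% lower. The median was 0.23 against 0.02 over all genes. SP5 (-1.87), EHF (-0.96) and the crypt factor SOX9 (-0.74) fell, and ELF3 (0.80) rose. With both changes 9 rose and 10 fell, where 33.2% of all genes were called higher and 33.5% lower. The largest changes were those of MYB (-2.08), PRDM1 (1.98), EHF (-1.42) and KLF4 (-1.01).

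**Figure D4:**
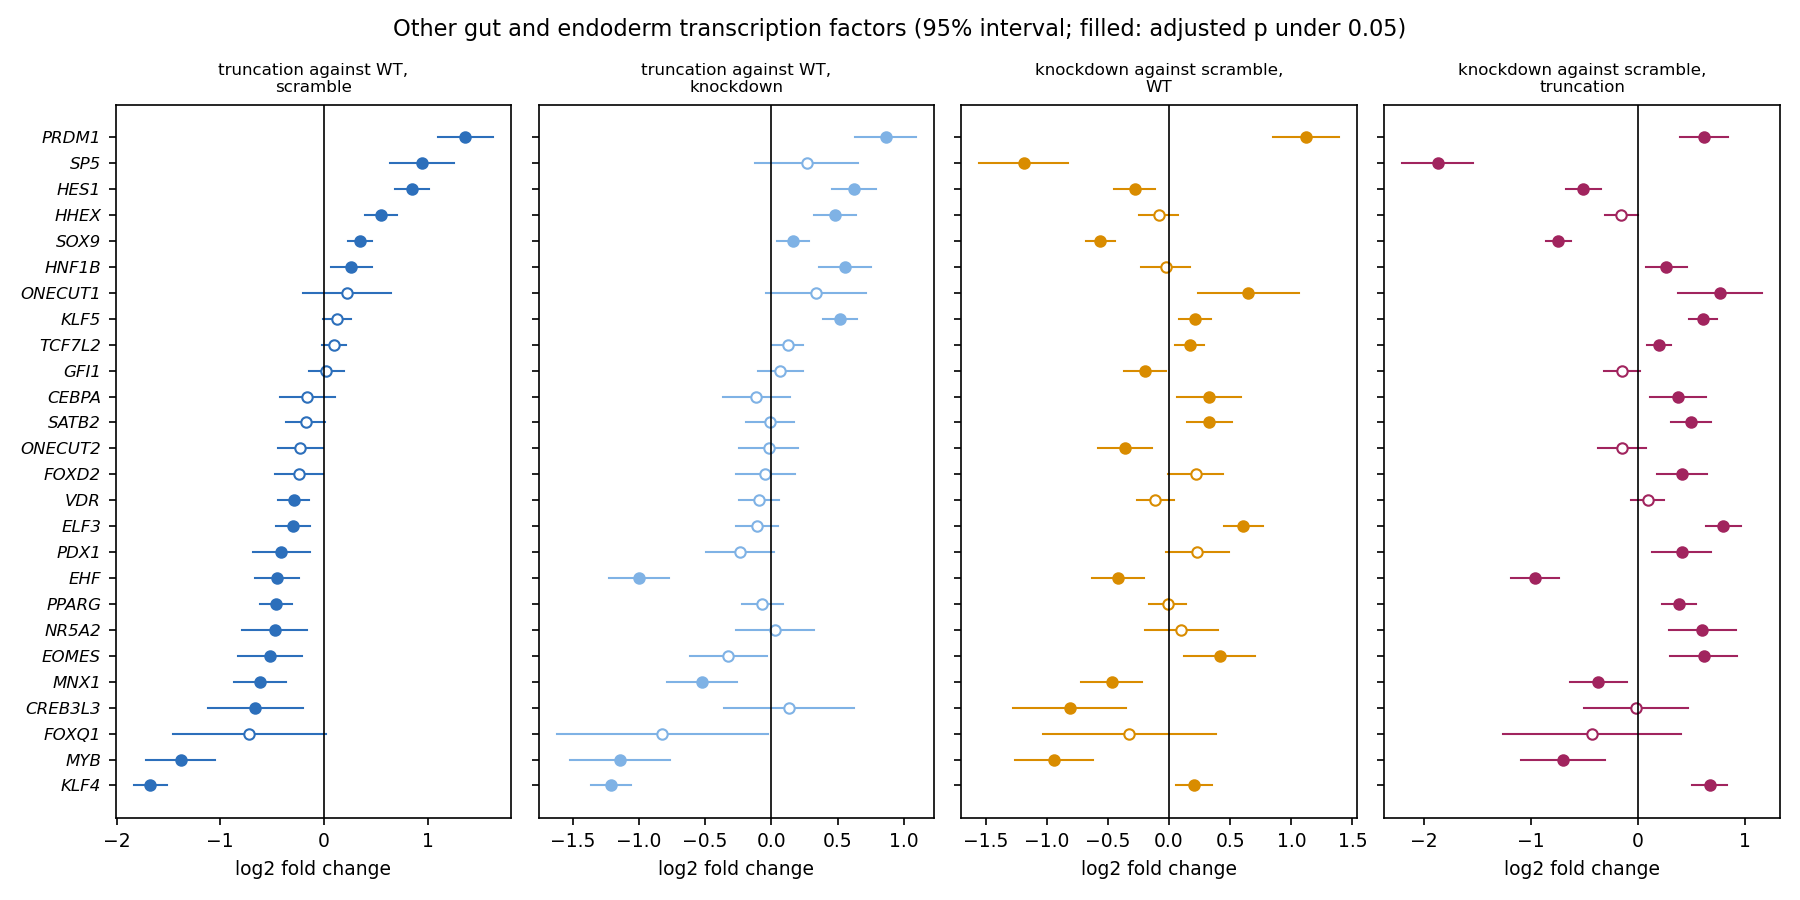
Log2 fold changes (x axis) with 95% intervals of the 26 tested genes of the list of other gut and endoderm transcription factors (y axis, ordered by the first panel), filled where the adjusted p was under 0.05, in 4 comparisons. KLF4 and MYB lie lowest and PRDM1 highest for the truncation in scramble cells. For knockdown in truncation cells 20 of the 26 were called, against 56.7% of all tested genes.

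Of 45 intestinal epithelial genes, among them textbook targets of HNF4 and CDX factors, 18 were tested, and the other 27 held 0 to 137 counts each over all libraries. The truncation raised 4 and lowered 5 in scramble cells and raised 4 and lowered 6 in knockdown cells. Over all tested genes 44.0% and 45.5% were called. In both comparisons the 4 raised genes were AXIN2, HEPH, MUC13 and TSPAN8. Of these, HEPH, MUC13 and TSPAN8 passed the filter on low counts through the groups where they were high, so their calls carry no weight. Calls of A1CF and LCT within the tallies of this paragraph have the same limit. The medians of the list were -0.27 and -0.05, against -0.02 and 0.00 over all tested genes. The largest changes at 1 log2 CPM or more in scramble cells were in the Wnt target AXIN2 (0.98), the peptidase DPP4 (-0.96), the carbonic anhydrase CA2 (-0.43) and the ephrin receptor EPHB2 (-0.37). In knockdown cells they were in the adhesion molecule EPCAM (-0.63), CA2 (-0.54), EPHB2 (-0.45) and DPP4 (-0.38), and the call of DPP4 was lost in 5 of the 16 fits that each omit a library, without WT knockdown replicate 1 or 3 or truncation knockdown replicate 1, 2 or 4. Knockdown raised 3 and lowered 5 in WT cells and raised 4 and lowered 5 in truncation cells, where 50.3% and 56.7% of all genes were called. In truncation cells AXIN2 (-1.13), EPCAM (-0.63) and EPHB2 (-0.60) fell and DPP4 rose (1.05), and in WT cells EPHB2 (-0.52), EPCAM (-0.32) and AXIN2 (-0.31) fell and DPP4 rose (0.47, with an adjusted p of 0.0504 without WT knockdown replicate 1). With both changes 3 rose and 5 fell, where 66.7% of all genes were called. The 3 that rose were A1CF, MUC13 and TSPAN8, all under the filter limit above.

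Genes of other endoderm organs and of non-epithelial cells had low sums. The 18 of the former list summed to 27.1 to 76.0 CPM in single libraries, with 6 tested and 1 without any count, and the 12 of the latter to 46.4 to 74.9 CPM, with 10 tested. In the former list ALB, the albumin gene, spread widely within groups. It ranged from 5.97 to 15.3 CPM in WT scramble and from 7.07 to 35.9 in WT knockdown, where its highest value exceeded every CDX2 library. In truncation cells ALB ranged from 5.47 to 20.4 CPM with scramble and from 5.39 to 29.8 with knockdown. TF also spread, at 2.57 to 12.9 CPM in WT knockdown and 1.18 to 11.6 in truncation knockdown. In WT cells the non-epithelial sum was 57.1 to 74.9 CPM with scramble and 50.1 to 65.1 with knockdown. In truncation cells it was 46.4 to 51.6 with scramble and 50.6 to 55.6 with knockdown. With the truncation in scramble cells, 1 gene of the first list rose (PAX8 at 0.71) and 2 fell (PAX9 at -0.26 and NKX2-1 at -1.29), and of the second RGS5 rose (0.73) and COL1A1 fell (-0.60). Over all tested genes 21.6% were called higher and 22.4% lower. PTPRC of the second list was also called lower (-3.17), but its groups overlapped, at 0.0698 to 11.6 CPM in WT scramble and 0.136 to 0.761 in truncation scramble, and without WT scramble replicate 4 its change was 1.02 with an adjusted p of 0.309. PAX9 lost its call when replicate 4 of WT scramble, or replicate 3 or 4 of truncation scramble, was omitted, with adjusted p up to 0.111. NKX2-1 and PTPRC were below the level set for named genes and were added after their values were seen. Knockdown in WT cells called 4 genes of the second list higher and 3 lower, against 25.2% and 25.1% of all genes. Among them ACTA2 (1.60) and RGS5 (1.23) rose and DES (-1.84) fell, and PTPRC again rested on WT scramble replicate 4. In truncation cells knockdown raised ACTA2 (1.37) and RGS5 (0.68) and lowered DES (-1.72), where 28.7% of all genes were called higher and 28.1% lower. Whether either list had a part in the changes of the lineage factors was not tested.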

How the data were processed

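The authors deposited raw counts for each Ensembl gene in 16 libraries. They also deposited a filtered version of these counts and, as signal, TMM-scaled CPM. The signal values deposited equalled CPM recomputed from the raw counts of the same genes to a relative difference of 5.0e-15, and levels in the text are these values. Per the submitters' processing notes STAR 2.7.3a, limma, edgeR and DESeq2 were used on hg38, in roles not stated. The sources used here do not give the counting program, annotation or strand setting. Samples were grouped by library name, genotype and treatment. The titles of the 4 truncation knockdown libraries say scramble, against description and treatment. The titles call replicates biological and name no separate cultures, and p-values then cover only spread among these libraries, which may be technical.

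Tests used the raw counts with edgeR 4.0.16 in R 4.3.3 (filterByExpr with a minimum count of 10, TMM, 1 coefficient per group, quasi-likelihood test on 6 contrasts, two-sided, Benjamini-Hochberg). The code was run on simulated data in which fewer genes changed than were called here, so that check does not cover changes this widespread. Tested genes held at least 99.8% of the counts of each library. Values after ± are standard errors unless named SD. DESeq2 1.42.0, upper-quartile scaling, no filter, a replicate block and leaving out each library were alternatives. All 8 members were named, and from each other list up to 4 called genes of at least 1 log2 CPM with the largest changes per comparison. Members and lists were chosen with earlier results of these data known.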

Additional observations from a re-analysis of the deposited data

Results flagged for a closer look

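In single groups of 4 libraries, 1 library stood far from the rest in 2 of the lineage genes. FOXA2 was at 0.0655 CPM (2 counts) in truncation knockdown replicate 3 and at 0 in the other replicates, and CDX1 had 2 counts in 1 truncation knockdown library and 0 in the others. Where the other libraries of a group are all at 0, any count in 1 library is flagged, so these flags carry no weight. Both values are within counting error of 0.

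The knockdown effect differed between truncation and WT cells, by the interaction test of edgeR with adjusted p under 0.05, for 7 genes named from the other lists and for no lineage factor of the 8. In truncation cells relative to WT cells the knockdown effect on the log2 scale was lower by -0.82 for AXIN2, -0.31 for EPCAM and -0.55 for EHF. It was higher by 0.42 for COL1A1, 0.46 for KLF4, and 0.39 for both PPARG and KLF5. With 1 library left out, the call was lost in 11 of 16 fits for COL1A1 (adjusted p up to 0.115), in 7 for EHF (up to 0.0657) and in 6 for PPARG (up to 0.0901). KRT18, an epithelial keratin added after its value was seen, also differed (0.46, adjusted p 0.0308) and lost the call in 10 of these fits. EPCAM lost it under upper-quartile scaling (0.0547), and AXIN2, KLF4 and KLF5 kept it in all 21 alternatives.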

How the results depend on the processing

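Over all alternatives, the calls of the lineage factors kept their direction, and 326 of 336 alternative values of the 16 called changes kept the call. These 16 include the calls of FOXA2, which passed the filter only through WT scramble, so its values do not count towards stability. The 10 values that lost the call all belong to FOXA2 after knockdown in WT cells. Of the 545 alternative values of the 26 changes not called, 17 passed the threshold. Members called numbered 2 for knockdown in WT cells, and 1 with no filter, with DESeq2 or without WT knockdown replicates 2 and 3 together, an alternative chosen after seeing the data. They numbered 1 for knockdown in truncation cells, and 2 under upper-quartile scaling, with no filter, with DESeq2 or without those 2 libraries. Leaving out 1 library gave 1 to 2 in both. In the interaction members called numbered 0, 1 under upper-quartile scaling (GATA6), and 0 to 1 with 1 library left out. Genes called in the interaction numbered 974, 1470 with DESeq2, 1642 without those 2 libraries, and 653 to 1661 with 1 library left out. The cause was not tested. Deviations of same-numbered replicates had correlations of -0.08 to 0.16 over 6 pairs of groups. With 4 libraries per group, these low values cannot decide whether the numbers pair the samples. With the replicate number as a block, 7704 genes were called for the truncation in scramble cells, 8755 and 9858 for knockdown in WT and truncation cells and 1150 in the interaction, and members called stayed at 4, 2, 1 and 0. Without WT scramble replicate 4, the log2 fold change of PTPRC turned from -3.17 to 1.02 for the truncation in scramble cells, from -3.19 to 0.99 for knockdown in WT cells and from -3.94 to 0.24 for both changes. With each library left out in turn these values ranged from -3.93 to 1.02, from -4.29 to 0.99 and from -4.71 to 0.24. Depth limits FOXA2 and CDX1.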

Other observations

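Several intestinal genes too low for the rule on named genes were singled out after their values were seen. MUC13, a membrane mucin, had 26 counts with scramble and 124 with knockdown in WT cells, and 66 and 256 in truncation cells, summed over 4 libraries each. TSPAN8, a tetraspanin of gut epithelium, had 9, 18, 105 and 163 counts in the same order. Both are given as counts only, since they passed the filter on low counts through the groups where they were high. VIL1, which encodes the brush border protein villin, had 11, 19, 1 and 2 counts and was not tested. Other low genes of the list took other directions. KRT20 had 172, 106, 152 and 56 counts in the same order, fewer with knockdown in both genotypes. A1CF had 51, 232, 19 and 119, more with knockdown and fewer with the truncation. LINC00261, the long non-coding RNA next to FOXA2, had 0 counts in all 16 libraries.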
